A study of Homo sapiens with 13 samples.

Results

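The aldo-keto reductases reported here are 7 genes, *AKR1C1*, *AKR1C2*, *AKR1C3*, *AKR1C4*, *AKR1B1*, *AKR1B10* and *AKR1A1*, out of 56831 genes measured. They were chosen by symbol as a family, starting from *AKR1C3*, which had the largest fall of all genes in treated H146 cells. RNA was sequenced from H82 and H146, 2 established small cell lung cancer (SCLC) lines labelled wild type. Each line was grown without drug or with 100 nM FHD-286, an inhibitor of the chromatin remodelling ATPases SMARCA4 and SMARCA2, for 14 days. There were 3 untreated and 3 treated H82 libraries, and 3 untreated and 4 treated H146 libraries. Each line is a single culture model, and the labels do not say whether libraries came from separate cultures, so *p* values measure only the spread between libraries. Values are TPM, a measure of transcript abundance, which are scaled for gene length and sum to the same total in every library. Sequencing depth is not kept in this unit and is unknown here. Because *AKR1C3* was picked from the H146 comparison, the 7 genes are described in H146 without a test, and tests on them are confined to H82.

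Aldo-keto reductases use NADPH to reduce aldehydes and ketones to alcohols. The AKR1C enzymes act mainly on ketosteroids and prostaglandins, and by doing so set how much active hormone reaches a receptor. AKR1B1 is aldose reductase, which starts the polyol pathway from glucose to sorbitol, and AKR1B10 is its relative with a preference for retinal and lipid aldehydes. AKR1A1 is the widely expressed aldehyde reductase. In lung cancer several of these genes are best known as targets of the oxidative stress factor NRF2, which binds antioxidant response elements.

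The AKR1C genes lie side by side on chromosome 10 (hg38, GENCODE release 44), in a cluster of 255.7 kb. *AKR1C1* (ENSG00000187134.14) spans chr10:4963253-4983283 on the plus strand. *AKR1C2* spans chr10:4987775-5018031 on the minus strand, *AKR1C3* chr10:5035354-5107686 and *AKR1C4* chr10:5195462-5218949, both on the plus strand. *AKR1B1* (chr7:134442356-134459284, minus strand) and *AKR1B10* (chr7:134527567-134541412, plus strand) are a pair on chromosome 7, and *AKR1A1* lies alone at chr1:45550543-45570049 on the plus strand. The AKR1C genes are close copies. Between their reference transcripts, *AKR1C1* and *AKR1C2* were identical at 97.2% of 3209 aligned bases, *AKR1C1* and *AKR1C3* at 90.1% of 1185, and *AKR1C3* and *AKR1C4* at 87.2% of 1177. Of all windows of 75 bases along the transcript, 36.0% for *AKR1C2*, 16.8% for *AKR1C1*, 12.3% for *AKR1C3* and 3.31% for *AKR1C4* also occurred unchanged in a transcript of another of the 7 genes, against 0% for *AKR1B1*, *AKR1B10* and *AKR1A1*. Reads were counted per gene with STAR at default parameters, which by default does not count reads that map to several places. How many reads were left out for each gene is unknown here, so the division of signal between *AKR1C1* and *AKR1C2* is uncertain.

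The promoters are shown because 3 of the 4 cluster genes were low together in treated H146 while the fourth was never above 1 TPM in that line. RefSeq promoter windows (GRCh38.p14, 250 bases before to 50 after the start) were given for 6 of the 7 genes, which leaves *AKR1B10* without one here. The windows below are written 5′ to 3′ on the gene's own strand, with capitals marking a CCAAT box (CCAAT, or ATTGG on the other strand) or a TATA box (TATAAA, or TTTATA on the other strand).
AKR1C1, chr10:4963165-4963464, plus strand: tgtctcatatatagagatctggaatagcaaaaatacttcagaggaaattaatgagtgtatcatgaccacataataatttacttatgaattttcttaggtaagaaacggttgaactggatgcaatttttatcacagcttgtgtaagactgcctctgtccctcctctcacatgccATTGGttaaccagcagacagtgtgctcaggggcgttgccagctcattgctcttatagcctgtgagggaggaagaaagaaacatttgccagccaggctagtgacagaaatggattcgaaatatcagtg
AKR1C2, chr10:5003808-5004107, minus strand: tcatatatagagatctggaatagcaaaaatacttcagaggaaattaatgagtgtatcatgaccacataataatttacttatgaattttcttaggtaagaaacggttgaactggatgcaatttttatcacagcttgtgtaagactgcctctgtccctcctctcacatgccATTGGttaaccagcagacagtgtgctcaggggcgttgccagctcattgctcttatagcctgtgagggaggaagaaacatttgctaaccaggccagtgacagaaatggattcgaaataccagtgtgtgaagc
AKR1C3, chr10:5094164-5094463, plus strand: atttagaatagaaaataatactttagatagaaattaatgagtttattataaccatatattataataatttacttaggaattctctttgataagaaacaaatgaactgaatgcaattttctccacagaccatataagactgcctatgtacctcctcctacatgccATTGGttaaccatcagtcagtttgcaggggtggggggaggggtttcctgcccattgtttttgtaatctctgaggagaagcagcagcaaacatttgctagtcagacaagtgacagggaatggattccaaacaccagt
AKR1C4, chr10:5196587-5196886, plus strand: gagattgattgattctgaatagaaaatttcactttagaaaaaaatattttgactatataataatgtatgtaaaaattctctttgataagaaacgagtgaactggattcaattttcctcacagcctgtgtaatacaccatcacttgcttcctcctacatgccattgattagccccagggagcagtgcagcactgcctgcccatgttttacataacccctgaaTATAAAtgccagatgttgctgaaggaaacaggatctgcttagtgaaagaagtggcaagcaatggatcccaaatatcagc

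The *AKR1C1* and *AKR1C2* windows were identical at 98.6% of 292 aligned bases, those of *AKR1C1* and *AKR1C3* at 79.9% of 283, and those of *AKR1C3* and *AKR1C4* at 72.1% of 280. A CCAAT box in reverse orientation stood at bases 174 to 178 of the *AKR1C1* window, 170 to 174 of *AKR1C2* and 165 to 169 of *AKR1C3*. The *AKR1C4* window held no CCAAT box and had a TATA box at bases 222 to 227. Over all 35116 windows of this length, a CCAAT box occurred in 34.6% and a TATA box in 11.5%. Searched on both strands, none of the 4 windows held the antioxidant response element core TGACNNNGC (in 13.3% of all windows), the AP-1 site TGANTCA (7.71%) or the E-box CAGCTG (17.9%). A second *AKR1C3* start, with its window at chr10:5048531-5048830, held an E-box at bases 266 to 271, together with a CCAAT box at bases 178 to 182 and a TATA box at bases 225 to 230. These matches describe letters in a short window only.

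Some properties of the libraries touch the results. Of 6 SCLC and neuroendocrine markers, 6 reached 1 TPM in every H82 library and 5 in every H146 library. In H82 the median levels of *SYP*, *CHGA* and *NEUROD1* went from 202, 157 and 231 TPM without drug to 50.7, 21.1 and 91.1 TPM with it. Those of *UCHL1*, *INSM1* and *NCAM1* went from 423, 14.8 and 53.1 TPM to 827, 33.9 and 69.0 TPM. In H146 the 6 markers summed to 3310 to 3784 TPM without drug and 2502 to 2678 TPM with it. *UCHL1* went from 1933 to 2105 TPM without drug to 1356 to 1536 TPM with it, and *INSM1* from 1140 to 1405 to 758 to 1018 TPM. *SYP*, *CHGA*, *NCAM1* and *NEUROD1* overlapped between the H146 groups. With FHD-286 the median log2 difference of TPM + 1 over all genes tested was -0.56 in H82 and 0.25 in H146, and -0.12 and -0.03 after scaling by the median of ratios, so values relative to that median are also given. In H82 the mitochondrial share of the TPM was 22.1% to 24.1% without drug and 12.3% to 14.9% with it, and 21227 to 21772 genes reached 1 TPM without drug against 15554 to 16633 with it. In H146 the mitochondrial share overlapped, at 7.56% to 8.86% and 3.82% to 11.4%. All 4 hepatocyte markers were high in treated H82, with a summed level of 442 to 780 TPM against 0.477 to 1.38 TPM in untreated H82. *ALB*, the serum albumin gene, was at 515, 310 and 444 TPM in treated H82 replicates 1, 2 and 3 and at most 0.0606 TPM without drug. In H146 the same sum was 30.6 to 159 TPM with drug and 33.2 to 58.4 TPM without, and only 1 of the 4 markers reached 1 TPM in every library of either group. Fibroblast markers also summed higher with drug, at 7.98 to 35.3 against 1.70 to 2.50 TPM in H82 and at 17.1 to 32.7 against 6.78 to 8.78 TPM in H146. The part of any marker set or of the mitochondrial share in the results below was not tested. In bulk RNA, fewer cells of a type and less RNA per cell cannot be told apart.

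Treated H82 replicate 2 stood apart from its group. The neuroendocrine factor *INSM1* was at 296 TPM in it, against 32.1 and 33.9 TPM in the other two, and the foregut factor *FOXA2* was at 35.7 TPM against 2.62 and 1.08 TPM. A set of 41 genes with at least 20 TPM in every H146 library and at most 0.05 TPM in every untreated H82 library had a median of 1.19 TPM in replicate 2, and of 0.170 and 0.0578 TPM in replicates 1 and 3. This set and both single genes were picked after the values had been seen. Whether the library holds some RNA of H146 was not tested, which touches its *AKR1C1* and *AKR1C2* values. In H82, the values of *AKR1C1*, *AKR1C2*, *AKR1C4*, *AKR1B1* and *AKR1B10* are given with and without it. So are the counts of the NRF2, steroid and carbonyl lists.

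In untreated H146 the AKR1C genes were among the most abundant transcripts of the cell. *AKR1C2*, which inactivates dihydrotestosterone, was at 816, 947 and 699 TPM in replicates 1, 2 and 3 and ranked between 117 and 168 among all genes. *AKR1C3*, which makes testosterone from androstenedione and also prostaglandin F, was at 544, 503 and 509 TPM. *AKR1C1*, which inactivates progesterone, was at 311, 352 and 295 TPM. *AKR1A1* and *AKR1B1* followed with means of 102 ± 3.45 (SD, n = 3) and 77.4 ± 2.86 TPM (SD, n = 3). *AKR1C4*, the liver enzyme of bile acid synthesis, was at 0.319 to 0.504 TPM, and *AKR1B10* did not exceed 0.0501 TPM. In this order from *AKR1C2* down to *AKR1B10*, no gene's range overlapped that of the next. The 4 AKR1C genes together made up 89.2% to 90.8% of the summed TPM of the 7 genes.

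With FHD-286 the AKR1C signal of H146 was lower by more than an order of magnitude. *AKR1C3* stood at 2.30, 3.69, 0.781 and 0.508 TPM in treated replicates 1 to 4. All 4 treated libraries were far under the untreated ones, whose mean of 519 ± 22.0 TPM (SD, n = 3) was 285 times the treated mean of 1.82 ± 1.48 TPM (SD, n = 4). Taken library by library, the untreated mean was 141 times the highest treated value and 1021 times the lowest. On the log2(TPM + 1) scale the difference was -7.68, and -7.92 relative to the median of all genes. This was the value that chose the gene, and the next gene in the ranking, *GDF15*, had -6.75.

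*AKR1C1* and *AKR1C2* had the same direction with a smaller difference. *AKR1C1* was at 9.01, 27.6, 3.67 and 3.43 TPM in treated replicates 1 to 4, so that the untreated mean of 319 ± 29.4 TPM (SD, n = 3) was 29.2 times the treated mean of 10.9 ± 11.4 TPM (SD, n = 4). *AKR1C2* was at 31.3, 69.5, 7.70 and 8.58 TPM, and its untreated mean of 821 ± 124 TPM (SD, n = 3) was 28.04 times the treated mean of 29.3 ± 29.0 TPM (SD, n = 4). For all 3 genes the highest treated library was replicate 2, then replicate 1, and replicates 3 and 4 were lowest. The log2 differences were -5.19 for *AKR1C1* and -5.29 for *AKR1C2*, which placed them at positions 18 and 15 among falls over 19585 genes. The groups did not overlap for these genes, as was the case in the lower direction for 17.3% of all genes, and since the same comparison chose *AKR1C3* nothing is read from this.

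**Figure D1:**
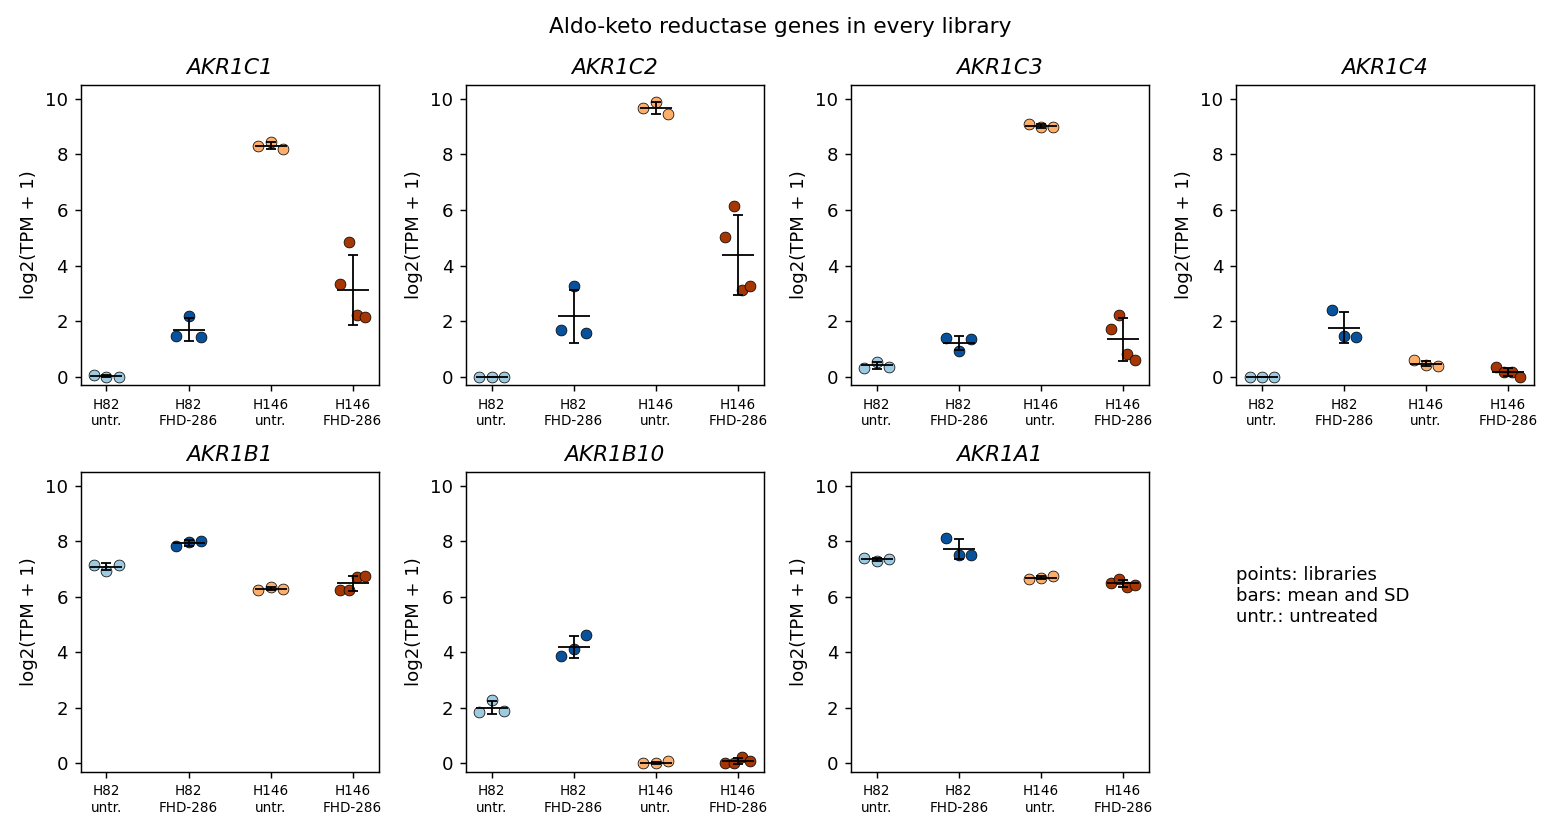
Level of each of the 7 genes as log2(TPM + 1) in every library, by line and treatment. Points are libraries and bars are the mean and SD. *AKR1C1*, *AKR1C2* and *AKR1C3* stand high only in untreated H146, whereas *AKR1B1* and *AKR1A1* stay between 74.6 and 277 TPM in all 13 libraries.

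The mix of AKR1C transcripts was not the same before and after treatment. *AKR1C3* gave 27.9% to 33.9% of the summed AKR1C signal of H146 without drug and 3.66% to 6.37% with it. The ratio of *AKR1C2* to *AKR1C3* was 1.37 to 1.88 without drug and 9.86 to 18.8 with it. The ratio of *AKR1C2* to *AKR1C1* overlapped between the groups, at 2.37 to 2.69 and 2.10 to 3.47. The summed AKR1C signal was 1503 to 1803 TPM in H146 without drug and 42.9, 100.9, 12.3 and 12.5 TPM in treated replicates 1 to 4. As a share of all 7 genes it was 20.6%, 36.7%, 6.28% and 6.15% in these libraries, and *AKR1B1* with *AKR1A1* made up nearly all of the rest.

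**Figure D2:**
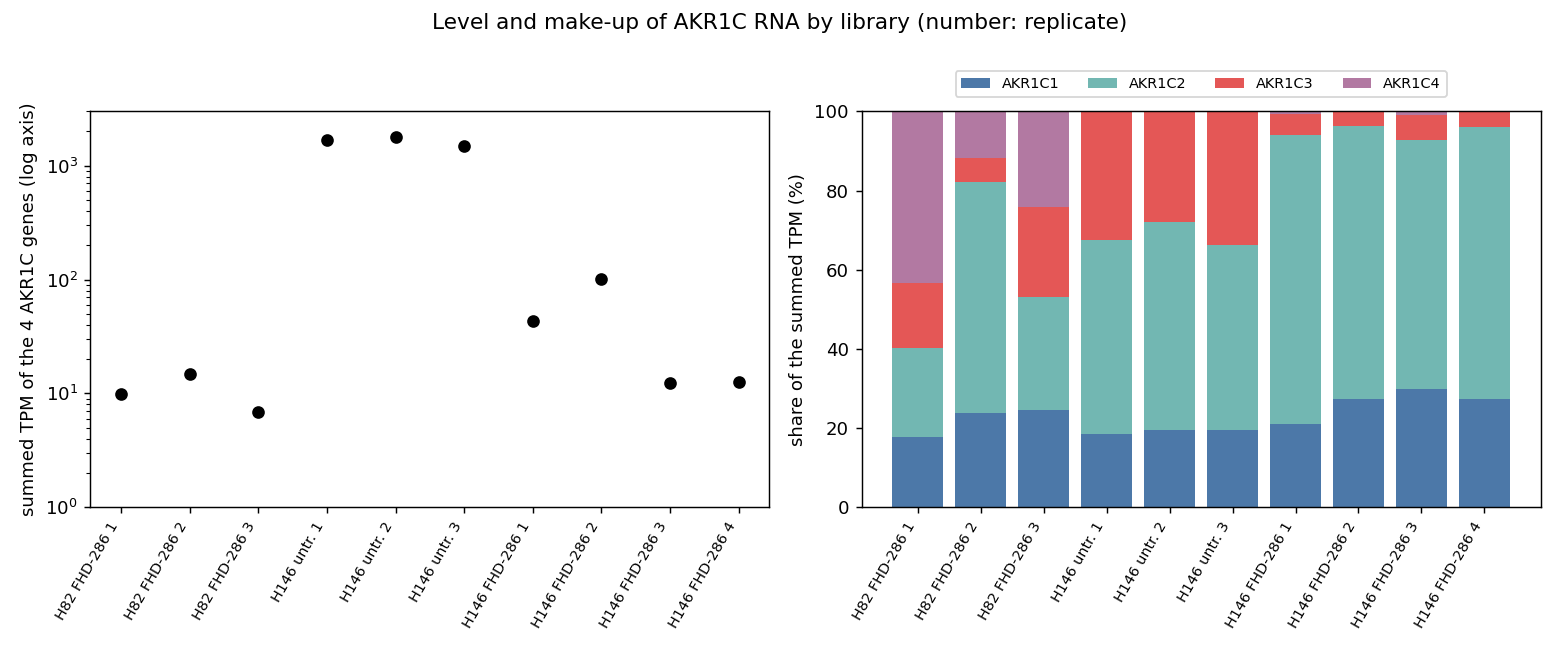
Left, summed TPM of the 4 AKR1C genes in each library on a log axis. Right, the share of each gene in that sum. Untreated H82 is left out because its sum was at most 0.458 TPM. The *AKR1C3* share in H146 is 27.9% to 33.9% without drug and 3.66% to 6.37% with it.

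The other members showed no such difference in H146. *AKR1B1* was at 75.3, 80.6 and 76.1 TPM without drug and 75.5, 74.6, 102 and 106 TPM with it, and the groups overlapped. Its log2 difference was 0.19, with the opposite sign, -0.12, when libraries were scaled by the median of ratios. *AKR1A1* was at 98.5, 102 and 105 TPM without drug and at 89.4, 99.8, 80.6 and 84.8 TPM with it, which also overlapped, with a log2 difference of -0.20. *AKR1C4* was at 0.504, 0.351 and 0.319 TPM without drug and at 0.287, 0.111, 0.112 and 0 TPM with it. These groups did not overlap, but all values are below 1 TPM. *AKR1B10* was at 0, 0 and 0.0501 TPM without drug and at 0, 0, 0.185 and 0.0574 TPM with it. *AKR1C4* and *AKR1B10* were below the filter, which asked for 1 TPM or more in 3 or more libraries of a line.

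H82 started from the opposite pattern. In untreated H82 the AKR1C genes were nearly silent, *AKR1C2* and *AKR1C4* being listed at 0 in all 3 libraries. *AKR1C1* was at 0.0438, 0 and 0 TPM and *AKR1C3* at 0.254, 0.458 and 0.271 TPM. *AKR1B10* was detected at 2.64, 3.87 and 2.70 TPM, and *AKR1B1* and *AKR1A1* were high, at 135 ± 11.4 and 161 ± 6.96 TPM (SD, n = 3 each). *AKR1B1* and *AKR1A1* made up 98.5% to 99.1% of the summed TPM of the 7 genes.

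Under FHD-286, 5 of the 6 members tested in H82 were called higher (limma with Benjamini-Hochberg adjustment over 19770 genes), where 13.1% of all genes tested were called higher. For all 6 the treated libraries lay above the untreated ones, as for 16.4% of all genes tested. Of the 6, *AKR1C1*, *AKR1C2* and *AKR1C4* passed the filter only through their treated libraries and so had to differ, which leaves *AKR1B1*, *AKR1B10* and *AKR1A1* as the members that could have gone either way. *AKR1C3* was under the filter. The rise in these genes went with the hepatocyte marker sum of 442 to 780 TPM given above, and the part of these markers in the result was not tested.

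*AKR1B10* had the clearest rise among the genes measured in both groups. It was at 13.4, 16.5 and 23.5 TPM in treated replicates 1 to 3, all above the 3 untreated libraries. The mean of 17.8 ± 5.15 TPM (SD, n = 3) was 5.80 times the untreated mean of 3.07 ± 0.692 TPM (SD, n = 3). On the log2(TPM + 1) scale, which understates changes of low genes, the rise was 2.19 ± 0.25 (SE, adjusted *p* = 0.000532, limma), or 2.74 relative to the median of all genes. Without treated replicate 2 it was 2.22 (adjusted *p* = 0.00247, limma).

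*AKR1B1* rose from 142, 122 and 142 TPM to 224, 247 and 259 TPM. The groups were well apart, and the mean was 1.80 times higher. The log2 rise was 0.85 ± 0.14 (SE, adjusted *p* = 0.00216, limma), or 1.40 relative to all genes. Without treated replicate 2 it was 0.83 (adjusted *p* = 0.0104, limma). *AKR1A1* was at 169, 155 and 161 TPM without drug and at 277, 181 and 180 TPM with it, so that most of its difference came from treated replicate 1. Its log2 difference of 0.36 ± 0.20 (SE) did not pass the threshold (adjusted *p* = 0.156, limma). It did after scaling by the median of ratios, where it was 0.85 (adjusted *p* = 0.0139, limma), and it was 0.08 (adjusted *p* = 0.793, limma) under quantile normalization.

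The AKR1C genes of H82 went from near 0 to a few TPM. *AKR1C2* was at 2.24, 8.68 and 1.95 TPM in treated replicates 1 to 3, with 0 in every untreated library, so no fold is given. Its log2 difference was 2.18 ± 0.45 (SE). *AKR1C1* was at 1.76, 3.53 and 1.70 TPM, with a log2 difference of 1.67 ± 0.25 (SE). The filter passed these genes only through their treated libraries. With no filter they still started from levels at or near 0 and could hardly fall, so their tests are not given. Both were highest in replicate 2. The *AKR1C2* to *AKR1C1* ratio was 2.46 there and 1.27 and 1.15 in replicates 1 and 3, against 2.10 to 3.47 in the H146 libraries. With replicate 2 left out and no filter, the log2 rise was 1.63 for *AKR1C2* and 1.43 for *AKR1C1*.

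*AKR1C4* behaved otherwise within the same libraries. It was at 4.31, 1.74 and 1.67 TPM, highest in replicate 1, and took 43.5%, 11.7% and 24.1% of the AKR1C signal. Its log2 rise was 1.76 ± 0.30 (SE), and 1.91 with no filter and without replicate 2. Listed at 0 in every untreated library, it could only rise, so its test is not given. *AKR1C3* was at 1.61, 0.919 and 1.58 TPM, lowest in replicate 2, and 4.18 times its untreated mean. All 3 treated libraries were above the untreated ones, with an exact permutation *p* of 0.1 (two-sided, n = 3 and 3), the smallest this design allows. The 3 AKR1C genes listed at or near 0 without drug have log2 differences that depend on the pseudocount, and with 0.1 in place of 1 these were 4.35 for *AKR1C1*, 5.12 for *AKR1C2* and 4.60 for *AKR1C4*.

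Set side by side, the levels of *AKR1C1*, *AKR1C2* and *AKR1C3* lay closer between the lines with drug than without. *AKR1C3* was at 0.508 to 3.69 TPM in treated H146 and 0.919 to 1.61 TPM in treated H82, which overlapped, while the untreated lines were at 503 to 544 and 0.254 to 0.458 TPM. *AKR1C1* also overlapped between the treated lines, at 3.43 to 27.6 and 1.70 to 3.53 TPM, and *AKR1C2* at 7.70 to 69.5 and 1.95 to 8.68 TPM. Both overlaps came from treated H82 replicate 2, without which H82 was at most 1.76 TPM for *AKR1C1* and 2.24 TPM for *AKR1C2*, below every treated H146 library. *AKR1C4* did not overlap, with its highest levels in treated H82 and at most 0.504 TPM in any H146 library. *AKR1B1* and *AKR1A1* were ordered treated H82, untreated H82 and then both H146 groups, which overlapped each other. *AKR1B10* had the same order. Since untreated H146 belongs to the comparison that chose *AKR1C3*, these levels are given as a description without a test.

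The rest of the AKR1C locus was examined for genes within 500 kb of the cluster. Of 9 protein-coding neighbours, 3 were high enough to be tested in H82 and 4 in H146. *UCN3*, which encodes the peptide urocortin 3 and lies beyond *AKR1C4*, fell in H146 from 352 to 431 TPM without drug to 66.6, 76.9, 15.4 and 10.3 TPM in treated replicates 1 to 4. Its log2 fall was -3.64 ± 0.65 (SE, adjusted *p* = 0.00258, limma), and replicates 1 and 2 were again above 3 and 4. In treated H82 it was at 0.697, 7.98 and 0.106 TPM and listed at 0 without drug, again with replicate 2 highest. *NET1* fell in H146 with a log2 difference of -0.56 (adjusted *p* = 0.00569, limma) and had -0.10 in H82 (adjusted *p* = 0.705, limma).

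Farther out on the same side, *ASB13*, a SOCS box protein, and *TASOR2* (FAM208B in the tables), a relative of the silencing factor TASOR, rose in H146. The log2 rises were 2.11 (adjusted *p* = 0.00900, limma) and 1.004 (adjusted *p* = 0.00441, limma). In H82 *TASOR2* fell by 1.57 on the log2 scale (adjusted *p* = 0.000919, limma), and *ASB13* had 0.15 (adjusted *p* = 0.396, limma). The other neighbours, *AKR1E2*, *AKR1C8*, *TUBAL3*, *CALML5* and *CALML3*, had means of at most 0.206 TPM in any group. *AKR1C8* lies inside the cluster between *AKR1C3* and *AKR1C4* and was listed at 0 in every H82 library.

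**Figure D3:**
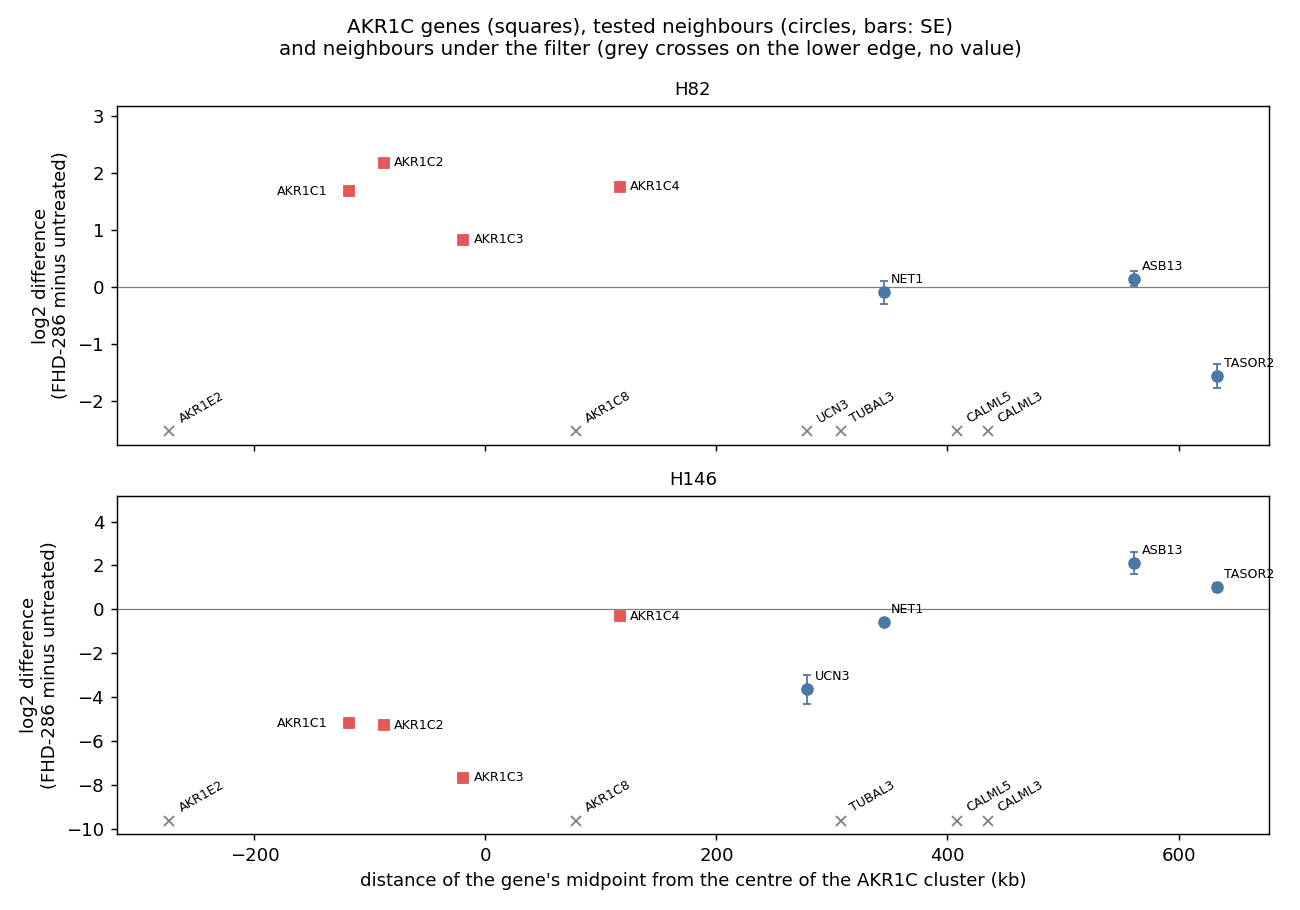
Log2 difference of TPM + 1, FHD-286 minus untreated, for the AKR1C genes and their neighbours against distance from the centre of the cluster in kb, in H82 (upper) and H146 (lower). Squares are AKR1C genes, circles tested neighbours with SE, and grey crosses neighbours under the filter without a value. *AKR1C3* in H82 and *AKR1C4* in H146 were also under the filter. In H146, *AKR1C1*, *AKR1C2*, *AKR1C3* and *UCN3* lie at -3.64 or lower, and *ASB13* and *TASOR2* above 0.

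Around *AKR1B1* and *AKR1B10*, 6 of 7 neighbours were tested in H82. *AGBL3* and *CALD1* were called lower, and *SLC35B4*, *EXOC4*, *LRGUK* and *BPGM* did not pass the threshold, where 58.6% of all genes were called in either direction. Both calls were lost with the median of ratios (adjusted *p* = 0.0930 and 0.274, limma), with quantile normalization (0.831 and 0.0539) and when any single untreated library was left out. In H146 5 were tested, of which *BPGM*, *LRGUK* and *SLC35B4* rose, *AGBL3* was called higher with a call lost in 5 alternatives, the median of ratios among them, and *EXOC4* did not pass, against 47.9% of all genes called. *AKR1B15*, the closest relative of *AKR1B10* and 7.7 kb from it, had means of 0.0397 and 0.0515 TPM in untreated and treated H82. Around *AKR1A1*, 15 neighbours were tested in each line. In H82 *HPDL* rose and *CCDC17* fell. *PRDX1*, *MUTYH*, *MAST2* and *MMACHC* were called higher and *ZSWIM5* and *GPBP1L1* lower, with calls that were lost in at least 1 alternative, and *GPBP1L1* had the other sign, 0.05, with the median of ratios. In H146 *PIK3R3*, *IPP* and *PRDX1* rose and *TESK2* fell. *MMACHC*, *ZSWIM5* and *GPBP1L1* were called higher and *TMEM69* lower, with calls likewise lost in at least 1 alternative. *PRDX1*, the peroxiredoxin gene 7.8 kb from *AKR1A1*, went from a mean of 1119 to 3178 TPM in H82 and from 819 to 1605 TPM in H146.

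Genes of the NRF2 pathway, to whose known targets the AKR1C genes and *AKR1B10* belong, were read from a list of 24. In H82 12 of 23 tested rose, 2 fell and 9 did not pass the threshold, so that 60.9% were called where 58.6% of all genes were. Among the 12, *SRXN1* (0 to 0.142 TPM without drug, 1.89 to 3.90 TPM with it) passed the filter only through treated libraries and had to rise. *ABCC2*, among the 2 that fell, passed only through untreated libraries and had to be lower. Called higher were 13.1% of all genes tested in H82. The median log2 difference was 0.47, against -0.56 for all genes. In H146 8 of 24 rose, 5 fell and 11 did not pass, with 54.2% called against 47.9% of all genes, and a median of 0.01 against 0.25. Scaling by the median of ratios gave 17 higher and 1 lower in H82, and 5 higher and 10 lower in H146, so the balance of the list in H146 turned with the scaling. Over all genes this scaling gave 4862 higher and 6227 lower in H82, and 4111 higher and 4966 lower in H146. Without treated H82 replicate 2, 8 genes of the list were higher and 1 lower in H82. Over all genes these were 1738 and 8187. Genes that reached 1 TPM only with drug could then no longer pass the filter.

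*NQO1*, the quinone reductase often read as the standard NRF2 target, rose in both lines. It went from 9.14, 6.77 and 12.4 TPM to 44.1, 48.1 and 29.1 TPM in H82, a log2 rise of 1.99 ± 0.27 (SE, adjusted *p* = 0.000972, limma). In H146 it went from 41.1 to 44.3 TPM without drug to 121 to 157 TPM with it, a log2 rise of 1.65 ± 0.13 (SE, adjusted *p* = 4.67e-05, limma). In the same treated H146 libraries *AKR1C3* was at 0.508 to 3.69 TPM, and a link between these genes was not tested. The largest rises in H82 were *HMOX1*, heme oxygenase, at 3.30 (adjusted *p* = 0.00272, limma), and *PIR*, which encodes pirin, at 2.35 (adjusted *p* = 9.73e-05, limma). *UGDH*, the UDP-glucose dehydrogenase, rose by 1.60 in H146 (adjusted *p* = 0.000186, limma) and fell by 1.11 in H82 (adjusted *p* = 0.00321, limma).

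Other list members fell in H146. *EPHX1*, the microsomal epoxide hydrolase, fell by 1.53 on the log2 scale (adjusted *p* = 6.42e-05, limma). *ABCC3*, a conjugate export pump, fell by 1.84. It passed the filter only through the untreated libraries and so had to differ, and its test is not given. In H82 *ABCC2*, another export pump, was called lower at -0.62. It too passed the filter only through the untreated libraries and so had to differ, and its main test is not given. The call was lost without the low-value filter (adjusted *p* = 0.0728, limma), with the median of ratios (0.124) and with the replicate block (0.0702). It was also lost without treated replicate 2 (0.0750) or 3 (0.0747). Its sign turned under quantile normalization, where it had 0.30. *NFE2L2*, which encodes NRF2 itself and is named here after its values were seen, had log2 differences of 0.01 in H82 (adjusted *p* = 0.963, limma) and -0.28 in H146 (adjusted *p* = 0.0883, limma).

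**Figure D4:**
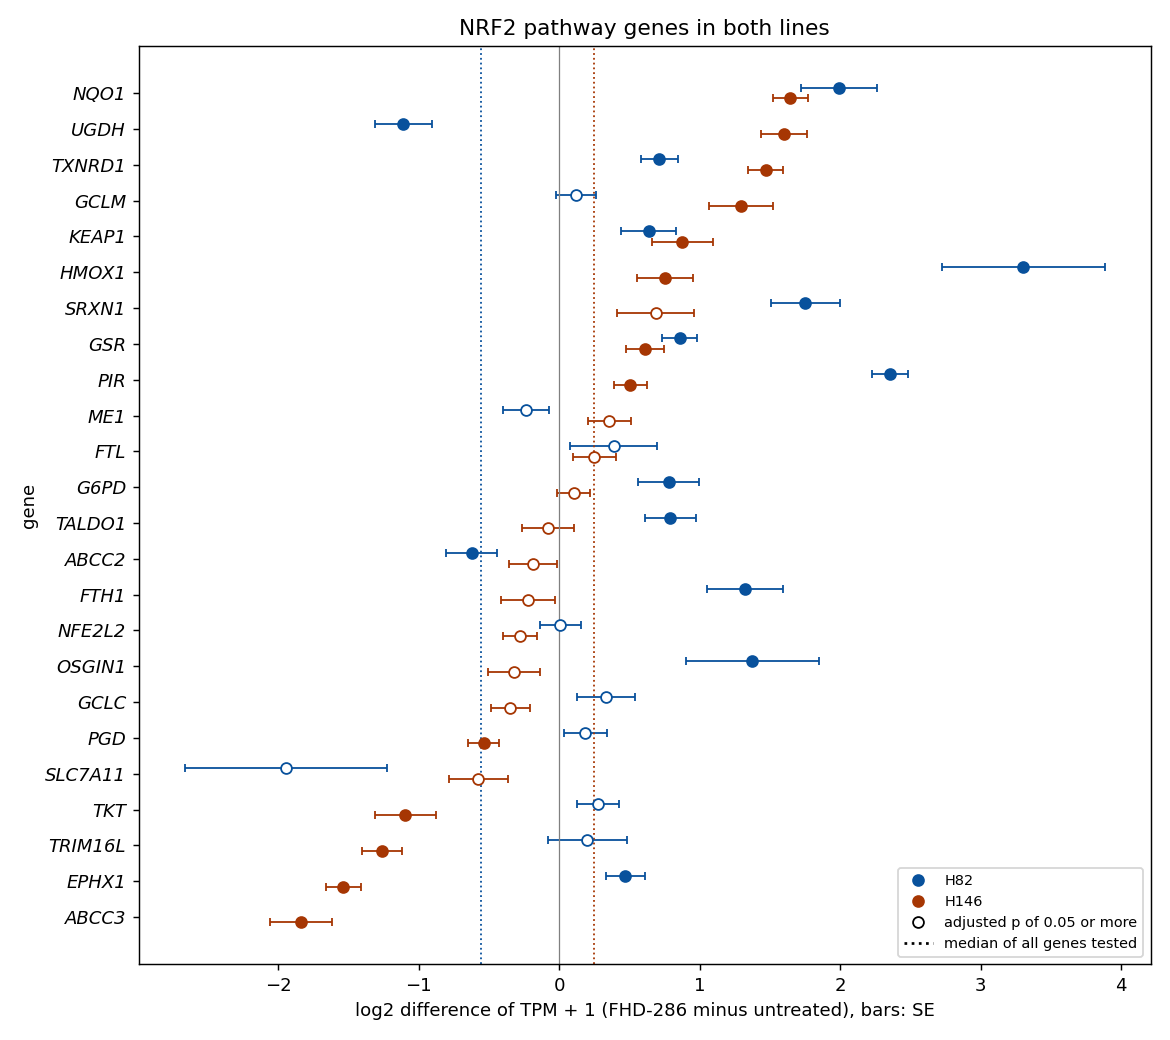
Log2 difference of TPM + 1, FHD-286 minus untreated, for the NRF2 pathway genes in H82 (blue) and H146 (brown), with SE bars. Filled points have an adjusted *p* under 0.05, open points do not, and dotted lines mark the median of all genes tested (-0.56 and 0.25). *NQO1* lies at 1.99 and 1.65, and *UGDH* on opposite sides of 0.

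The steroid and prostaglandin enzymes that work beside the AKR1C proteins were read from a list of 38. In H82 9 of 24 tested rose, 7 fell and 8 did not pass, with a median of -0.15, and in H146 6 of 24 rose, 4 fell and 14 did not pass, with a median of 0.38. The shares called, 66.7% and 41.7%, compare with 58.6% and 47.9% of all genes. Of all genes tested in H82, 13.1% were called higher, and the medians of all genes were -0.56 and 0.25. With the median of ratios the counts were 10 higher and 3 lower in H82 and 6 higher and 9 lower in H146. Without treated H82 replicate 2 there were 6 higher and 6 lower in H82. *SRD5A3*, a steroid reductase family member that makes dolichol, rose in both lines, from a mean of 6.11 to 24.9 TPM in H82 (log2 rise 1.87, adjusted *p* = 0.00182, limma) and from 3.96 to 29.1 TPM in H146 (log2 rise 2.51, adjusted *p* = 0.000496, limma).

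*HSD11B1*, which turns cortisone into cortisol and is abundant in liver, was at 3.63 to 5.41 TPM in treated H82 and listed at 0 without drug. It passed the filter only through the treated libraries. *CYP19A1*, aromatase, was at a mean of 2.01 TPM in untreated H82 and 0.141 TPM in treated H82 (log2 -1.38). It passed the filter only through the untreated libraries and so had to differ, and no test is given. *HSD11B2*, which inactivates cortisol, fell by 1.10 on the log2 scale (adjusted *p* = 0.00292, limma), and this call was lost under quantile normalization (adjusted *p* = 0.0834, limma). In H146 the inducible cyclooxygenase *PTGS2* rose by 1.64 (adjusted *p* = 0.000836, limma), and the constitutive *PTGS1* and the side-chain cleavage enzyme *CYP11A1* fell by 1.04 (adjusted *p* = 0.00250, limma) and 1.002 (adjusted *p* = 0.00700, limma).

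Among 29 other enzymes of carbonyl, retinal and polyol metabolism, 13 of 21 tested rose in H82 and 1 fell, where 13.1% of all genes were called higher. The share called in either direction was 66.7% against 58.6% of all genes, and the median 0.60 against -0.56. In H146 4 of 24 rose and 3 fell, with 29.2% called against 47.9% and a median of -0.03 against 0.25. The median of ratios gave 16 higher and 0 lower in H82, and 2 higher and 8 lower in H146. Without treated H82 replicate 2, 7 were higher and 0 lower in H82, where *ALDH1A1* could no longer pass the filter. *ALDH1A1*, a retinal dehydrogenase, was at most 0.0910 TPM in untreated H82. With drug it was at 14.9, 35.9 and 4.88 TPM in replicates 1 to 3, highest in replicate 2 (log2 rise 3.88). In H146 it was at 437, 413 and 398 TPM without drug and at 396 to 529 TPM with it, which overlapped. *DHRS3*, a retinal reductase, rose by 2.57 in H82. Both are among the 13 called higher in H82, but passed the filter only through the treated libraries and so had to differ. Their tests are not given. *RDH13* was called lower in H82 at -0.57 (adjusted *p* = 0.0272, limma), a call lost after the median of ratios, without treated replicate 2 (adjusted *p* = 0.0586, limma) and without any of the untreated libraries (0.0550 to 0.121), and of the other sign, 0.24, under quantile normalization. In H146 *RDH10*, a retinol dehydrogenase, and *SORD*, which follows AKR1B1 in the polyol pathway, rose by 0.89 (adjusted *p* = 0.00241, limma) and 0.74 (adjusted *p* = 0.00407, limma), and *DHRS7* and the fructokinase gene *KHK* fell by 1.21 (adjusted *p* = 0.000337, limma) and 0.97 (adjusted *p* = 0.00143, limma).

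Of 9 other aldo-keto reductase superfamily genes, 6 were tested in each line. In H82 *AKR7A2*, an aflatoxin aldehyde reductase, was the 1 that rose, by 1.15 on the log2 scale (adjusted *p* = 0.000676, limma). The potassium channel beta subunits *KCNAB1* and *KCNAB2*, which keep the reductase fold, fell by 2.42 (adjusted *p* = 0.000180, limma) and 1.71 (adjusted *p* = 0.000730, limma). *KCNAB3* also fell, and *AKR7L* was the last of 4 called lower, a call lost under quantile normalization (adjusted *p* = 0.0689, limma). The list had 83.3% called in H82 and 33.3% in H146, against 58.6% and 47.9% of all genes. Of all 19770 genes tested in H82, 2588 were called higher and 8996 lower. In H146 *AKR7A2* rose by 0.75 (adjusted *p* = 0.00510, limma), and *KCNAB1* was called lower at -0.50 (adjusted *p* = 0.0481, limma), a call lost with no filter (adjusted *p* = 0.116, limma) and when any library other than treated replicate 2 or untreated replicate 3 was left out (0.0807 to 0.197). *AKR1D1*, the bile acid pathway reductase, had a mean of 0.770 TPM in treated H82 and 0.236 TPM without drug, and *AKR1E2* did not exceed a mean of 0.131 TPM in any group.

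The genes whose level over the 13 libraries was most like that of *AKR1C3* were picked by Pearson's correlation of log2(TPM + 1) among 23676 genes. They were *CLC*, which encodes galectin-10 (r = 0.997), the noncoding RNAs *RP11-429A20.3* (0.995) and *RP11-345L23.1* (0.995), *LGALS14*, another galectin (0.994), and the keratin-associated *KRTAP19-1* (0.993). *CLC* had a mean of 135 TPM in untreated H146, 0.508 TPM in treated H146 and at most 0.644 TPM in either H82 group. *AKR1C1* came at place 223 (r = 0.950) and *AKR1C2* at place 395 (r = 0.915). The genes most like *AKR1B10* were *STEAP1*, a metalloreductase (r = 0.998), the NADPH oxidase gene *NOX4* (0.994), *SEMA3A* (0.993), the chemokine gene *CCL26* (0.990) and *ARHGAP28* (0.989), and its cluster partner *AKR1B1* came at place 64 (r = 0.969). The 13 libraries share 2 lines and 1 treatment, so these values describe a common order of group levels.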

How the data were processed

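RNA-seq was analysed for 13 libraries of H82 and H146, in groups taken from the sample labels. The authors mapped reads to hg38, counted them per gene by STAR at its default settings with a GENCODE annotation, compared groups with DESeq2, and deposited 1 TPM table per line. How they took gene length or used strand is not given in the sources used here. Every column summed to 1000000, which is the only scaling in the values. The tables' 56831 symbols were matched to GENCODE release 44 for positions, with 3 neighbours found through an older symbol. Since TPM are not counts, each line was fitted separately with limma 3.58.1 in R 4.3.3 (lmFit, eBayes with trend) on log2(TPM + 1), for genes that reached 1 TPM in 3 or more libraries of that line. Tests were two-sided with Benjamini-Hochberg adjustment and a threshold of 0.05. Members under the filter were compared by an exact permutation test of mean log2(TPM + 1), in H82 only. None of 8 housekeeping genes was listed at 0 in any library. The fit was tested on simulated data.

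The members and gene lists were chosen with earlier results of these data known. Genes named outside the 7 members are the largest 2 rises and largest 2 falls past the threshold in each list and line, all neighbours within 500 kb of the AKR1C cluster, tested neighbours of the other loci, and the 5 genes most like *AKR1C3* and *AKR1B10*. Alternatives were a pseudocount of 0.1, no filter, a mean TPM above 2, the median of ratios, quantile normalization, a replicate block, eBayes without trend, and each library left out in turn. No filter together with leaving out treated H82 replicate 2 was added after seeing the data. Promoter letters were aligned with Biopython 1.88, and plots drawn with matplotlib 3.10.9.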

Additional observations from a re-analysis of the deposited data

Results flagged for a closer look

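For 4 of the 7 members every treated H82 library was above, and every treated H146 library below, the untreated libraries of its line. Among the 23676 genes past the filter in either line, 3.05% had this pattern, and since 3 of the 4 passed the H82 filter only through treated libraries and *AKR1C3* did not pass it, nothing is read from the count. The log2 difference in H82 minus that in H146 was 6.86 for *AKR1C1*, 7.47 for *AKR1C2*, 8.50 for *AKR1C3* and 2.07 for *AKR1C4*. The difference between the lines was not tested, since the H146 comparison chose *AKR1C3*. The H82 side of each value comes from levels of at most 8.68 TPM, and for *AKR1C4* both H146 groups were below 1 TPM.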

How the results depend on the processing

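Depth is unknown, and AKR1C levels of a few TPM in H82 depend on the filter and pseudocount. The 5 members called in H82 became 3 for genes with a mean TPM above 2, and 2 to 5 with single libraries left out, where *AKR1C1*, *AKR1C2* and *AKR1C4* were not tested once a treated library was missing. They numbered 7 under the median of ratios and 6 with no filter. Of the other values of single members in H82, 72 kept their direction and their side of the threshold, and *AKR1A1* alone passed it, at 0.85, with the median of ratios. Of the list counts, 162 stayed within 1.5 times and 62 did not, among them counts that went to or from 0. Over 70 other values of the H146 members, 67 moved by less than the SD between libraries. The exceptions were *AKR1C3* at -8.45 with a pseudocount of 0.1, and *AKR1B1* at -0.12 and *AKR1A1* at -0.52 with the median of ratios. Over all genes, 2588 were higher and 8996 lower in H82. These became 4862 and 6227 with the median of ratios, and 5712 and 5128 with quantile normalization. The lower share of calls went from 77.7% to 56.2% and 47.3%. In H146, 6356 higher and 3033 lower became 4111 and 4966 with the median of ratios, the lower share going from 32.3% to 54.7%, and 4589 and 4182 with quantile normalization. Leaving out single libraries gave 1676 to 3503 higher and 4291 to 9957 lower in H82, and 4287 to 7480 higher and 1812 to 3729 lower in H146. In H82 each untreated library moved both counts past 1.5 times when left out, and in H146 untreated replicates 1 (1812 lower) and 2 (1942 lower) did. The filter still asked for 1 TPM in 3 libraries, so genes expressed only without drug could not pass once an untreated library was missing. In H82 the genes tested then numbered 16364 to 16488, against 19770 with all libraries and 19058 to 19237 with a treated library left out. How much of the change in the counts this makes was not tested.

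Deviations of same-numbered libraries from their group means correlated at 0.03, 0.01 and -0.04 in H82 and -0.11, -0.06 and 0.01 in H146. Whether same-numbered libraries were grown or prepared together is unknown here, and these values cannot settle it. The main fit did not pair them. With the replicate block, 2333 genes were higher and 8625 lower in H82, 4749 and 2377 in H146, and 5 members were called in H82.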
